A study of Arabidopsis thaliana with 6 samples.

Results

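The JAZ proteins (JASMONATE-ZIM-DOMAIN) are the transcriptional repressors of the jasmonate pathway in Arabidopsis thaliana. The genes JAZ1 to JAZ10 were taken by name, with earlier results of these data known, and all 10 had a probe set, named for its locus, among the 21430 on the array. Of these, 7 were tested and 3 (JAZ4, JAZ7 and JAZ8) stayed below the level set for testing, which was log2 4 on at least 3 of the 6 arrays. Leaves came from plants raised for 6 weeks in soil at 400 ppm CO2 in short days. The low CO2 group then spent 24 h at 100 ppm CO2, and the ambient CO2 group remained at 400 ppm. The labels name no accession, genotype or mutation, and no time of harvest. Each group had 3 arrays, and each array measured RNA pooled from the leaves of 4 to 5 plants. Nothing in the labels says that the pools were grown at separate times, so the tests measure the spread between these pools.

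Jasmonates are lipid-derived hormones made after wounding, insect attack and other stress. At rest, JAZ proteins hold transcription factors such as MYC2 inactive, together with the adaptor NINJA and corepressors of the TOPLESS family. The active hormone, a conjugate of jasmonic acid with isoleucine, joins JAZ proteins to the F-box protein COI1, and the JAZ proteins are then ubiquitinated and degraded. Freed MYC factors switch on response genes, among them most JAZ genes, so that JAZ transcripts are widely used as a readout of recent jasmonate signalling in leaves. Transcript levels say nothing direct about JAZ protein.

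The values are log2 expression made by the authors with GCRMA, a method for Affymetrix arrays that models background from the base content of the probes, brings the arrays to a shared distribution and summarises each probe set as 1 value. Array medians lay between log2 6.07 and 6.11. A pair of arrays stood apart. Low CO2 replicate 1 correlated across the 16210 tested probe sets better with the ambient arrays (r from 0.980 to 0.986) than with its own group (0.962 and 0.947). Ambient CO2 replicate 1 stood apart for the JAZ genes and some other jasmonate genes, as described below. Over all tested probe sets it correlated at 0.982 and 0.986 with the other ambient arrays. The leaf label fitted the markers, since RCA, LHCB3 and CA1, highly transcribed photosynthesis genes of the mesophyll, read log2 13.55 to 14.20, whereas the 5 floral identity genes AP1, AP3, PI, AG and SEP3 read at most log2 3.88. With 3 arrays per group, precision is limited by their number.

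JAZ transcripts did not separate low CO2 from ambient CO2 leaves when all 6 arrays were compared. Of the 7 tested JAZ genes, limma called 0 higher and 0 lower once p was adjusted over all probe sets, at a threshold of 0.05, against 0% of all 16210 probe sets in either direction. At an unadjusted p under 0.05, 0 of 7 stood higher and 0 of 7 lower, against 13.5% and 12.6% of all probe sets. The 3 low CO2 values lay entirely above the ambient values for 0 of the 7 genes and entirely below them for 0, against 14.6% and 14.3%. The differences ran from -0.48 for JAZ10 to 0.91 for JAZ1 on the log2 scale, with a median of 0.26 beside -0.03 over all probe sets tested. The largest differences sat on 1 ambient array rather than between the groups. All 7 tested genes had their highest value of the 6 arrays on ambient replicate 1, which was so for 14% of all probe sets tested. When that array was left out, all 7 differences were positive, from 0.10 for JAZ10 to 1.68 for JAZ1, and limma called 0 of the 7 after adjustment. That array is singled out for the values of these same genes, so its omission raises each difference by construction. The ambient spread was then also narrower, with an SE for JAZ1 of 0.20 in place of 0.61, so p values and intervals without it are likely too small and are given as a description. In bulk leaves, a difference in the RNA per cell cannot be told apart from a difference in the number of cells that express a gene.

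**Figure D1:**
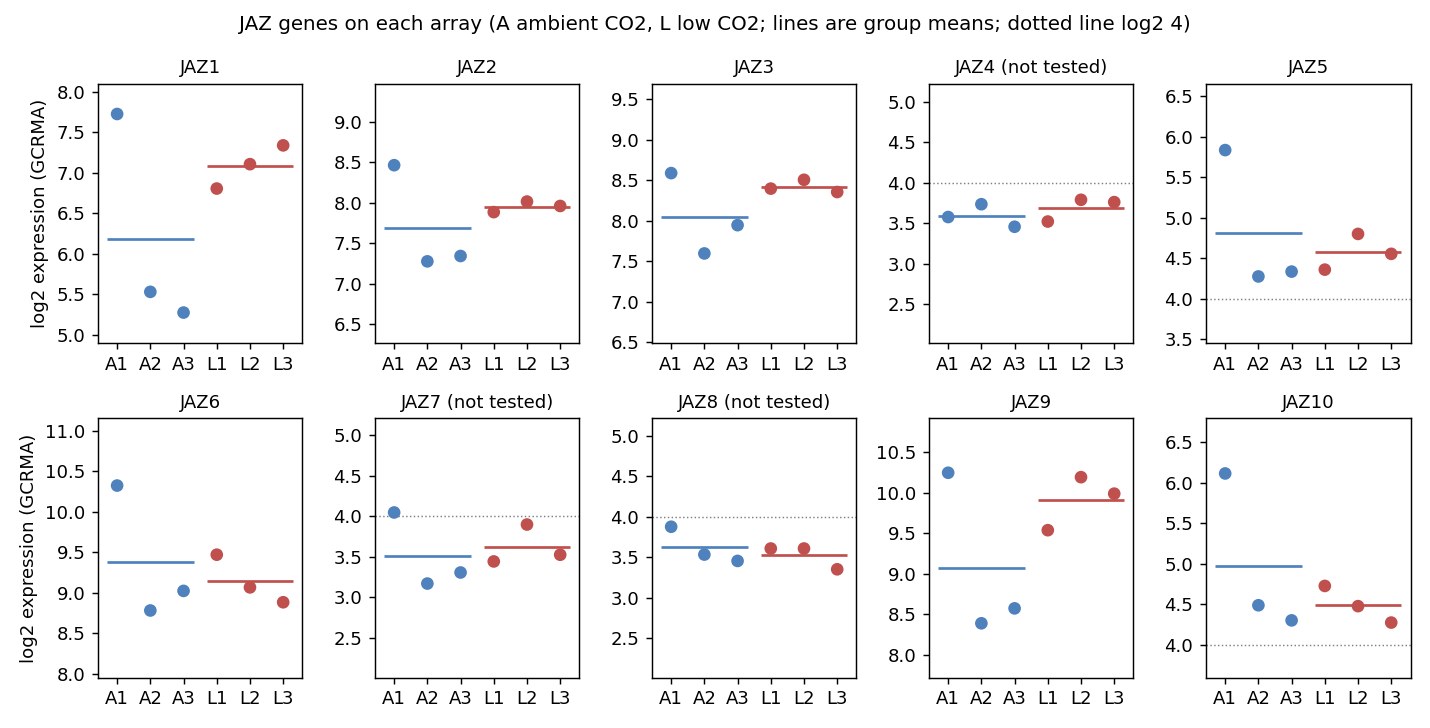
Log2 expression of the 10 JAZ genes on each array, with ambient CO2 arrays A1 to A3 in blue, low CO2 arrays L1 to L3 in red and lines at the group means of 3 arrays. Every panel spans the same height. A1 is the highest point for each of the 7 tested genes, and for JAZ1, JAZ2, JAZ3 and JAZ9 the low CO2 points lie between A1 and the other ambient points.

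JAZ1 and JAZ2 (also TIFY10A and TIFY10B) form a closely related pair of repressors that bind COI1 in the presence of the hormone. JAZ1 (AT1G19180_at) read 7.73, 5.53 and 5.28 on ambient replicates 1, 2 and 3 and 6.81, 7.11 and 7.34 on low CO2 replicates 1, 2 and 3. Its low CO2 values were close together and lay above ambient replicates 2 and 3 but below ambient replicate 1, so the groups overlapped. Low CO2 leaves averaged 7.08 ± 0.27 (SD, n = 3) and ambient leaves 6.18 ± 1.35, and the log2 difference was 0.91 (SE 0.61, 95% interval -0.55 to 2.37, limma adjusted p = 0.369). Without ambient replicate 1 it was 1.68 (SE 0.20, limma adjusted p = 0.101), or 3.21-fold. JAZ2 (AT1G74950_at) read 8.46, 7.28 and 7.34 on the ambient arrays and 7.88, 8.02 and 7.96 on the low CO2 arrays. As for JAZ1, the low CO2 values lay between ambient replicate 1 and the other ambient arrays, over a narrower range. Its log2 difference was 0.26 (SE 0.31, limma adjusted p = 0.611), and 0.64 (SE 0.12, limma adjusted p = 0.126) without ambient replicate 1.

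JAZ3 and JAZ9 belong with JAZ4 to another branch of the family. A dominant mutation in JAZ3, also called JAI3, makes plants insensitive to jasmonate. JAZ3 (AT3G17860_at) read 8.59, 7.60 and 7.95 on the ambient arrays and 8.40, 8.51 and 8.35 on the low CO2 arrays. The low CO2 values again lay below ambient replicate 1 and above the other ambient arrays. The log2 difference of JAZ3 was 0.38 (SE 0.24, limma adjusted p = 0.350), and 0.65 (SE 0.15, limma adjusted p = 0.143) without ambient replicate 1. JAZ9 (AT1G70700_at, also TIFY7) read 10.25, 8.39 and 8.57 on the ambient arrays and 9.54, 10.19 and 9.99 on the low CO2 arrays. Here the low CO2 values reached almost to ambient replicate 1, and low CO2 replicate 1 was the lowest of its group. JAZ9 differed by 0.84 (SE 0.49, 95% interval -0.32 to 1.99, limma adjusted p = 0.302), and by 1.43 (SE 0.22, limma adjusted p = 0.111), or 2.69-fold, without ambient replicate 1. JAZ4 (AT1G48500_at), which is known to bind the cold-response regulator ICE1, read between 3.46 and 3.79 on the 6 arrays and was not tested.

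JAZ5 and JAZ6 (TIFY11A and TIFY11B) are a further related pair. JAZ5 (AT1G17380_at) read 5.83, 4.27 and 4.33 on the ambient arrays and 4.36, 4.80 and 4.55 on the low CO2 arrays. Apart from ambient replicate 1 its values lay within 0.52 of each other, near the log2 4 level set for testing. Its log2 difference was -0.24 (SE 0.41, limma adjusted p = 0.728) with all arrays and 0.27 (SE 0.16, limma adjusted p = 0.347) without ambient replicate 1. JAZ6 (AT1G72450_at) read 10.33, 8.78 and 9.03 on the ambient arrays and 9.47, 9.07 and 8.89 on the low CO2 arrays. Low CO2 replicate 1 was the highest of its group, and the other low CO2 values mingled with ambient replicates 2 and 3. The difference of JAZ6 was -0.24 (SE 0.40, limma adjusted p = 0.729) and 0.24 (SE 0.21, limma adjusted p = 0.494) without ambient replicate 1.

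JAZ10 (AT5G13220_at, also JAS1) is a strongly jasmonate-induced member whose splice forms differ in their stability. A single probe set does not separate the splice forms. It read 6.12, 4.49 and 4.30 on the ambient arrays and 4.73, 4.48 and 4.28 on the low CO2 arrays. Ambient replicate 1 stood alone, and the other 5 values lay within 0.45 of each other, near the log2 4 level set for testing. Low CO2 leaves averaged 4.49 ± 0.23 (SD, n = 3) and ambient leaves 4.97 ± 1.00, a log2 difference of -0.48 (SE 0.46, 95% interval -1.57 to 0.62, limma adjusted p = 0.527). Without ambient replicate 1 the difference of JAZ10 was 0.10 (SE 0.17, 95% interval -0.33 to 0.53, limma adjusted p = 0.742).

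JAZ7 and JAZ8 (TIFY5B and TIFY5A) are short members, and JAZ8 lacks the usual degron, the stretch through which COI1 binds a JAZ protein. Both gave weak signals and were not tested. JAZ7 (AT2G34600_at) read 4.05, 3.17 and 3.31 on the ambient arrays and 3.44, 3.90 and 3.53 on the low CO2 arrays, and its only value above log2 4 was on ambient replicate 1. JAZ8 (AT1G30135_at) read 3.87, 3.53 and 3.45 on the ambient arrays and 3.61, 3.61 and 3.35 on the low CO2 arrays. With JAZ7 and JAZ8, 9 of the 10 JAZ genes had their highest value on ambient replicate 1, and JAZ4 did not. GCRMA compresses differences at this level.

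The JAZ genes spread widely among the ambient arrays. The SD over the 3 ambient arrays ran from 0.50 for JAZ3 to 1.35 for JAZ1, with a median of 0.88 over the 7 tested genes, beside a median of 0.14 and a 95th percentile of 0.43 over all probe sets tested. All 7 lay above that percentile. The SD over the low CO2 arrays was smaller than over the ambient arrays for all 7, with a median of 0.23 beside 0.20 over all probe sets. Ambient replicate 1 exceeded the mean of the other ambient arrays by 2.32 on the log2 scale for JAZ1, or 5.00-fold, by 1.77 for JAZ9 and by 1.72 for JAZ10. The excess was 1.53 for JAZ5, 1.42 for JAZ6, 1.15 for JAZ2 and 0.82 for JAZ3. For 6 of the 7 genes it was log2 1 or more, a size reached by 172 of all probe sets tested, or 1.06%. With 1 array on this side there is no test of that excess, and whether it arose in the plants, the harvest or the RNA was not tested.

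**Figure D2:**
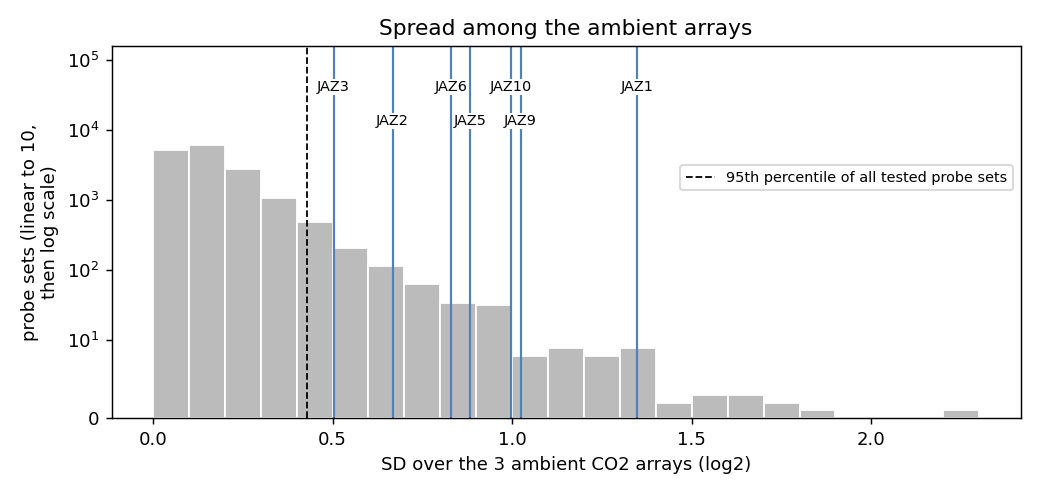
Number of tested probe sets (vertical axis, linear up to 10 and logarithmic above) by their SD over the 3 ambient CO2 arrays in log2 units. Blue lines mark the 7 tested JAZ genes, all of which lie to the right of the dashed 95th percentile at 0.43, from JAZ3 at 0.50 to JAZ1 at 1.35.

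The comparison was repeated without either array that stood apart. Without ambient replicate 1, 4 of the 7 genes (JAZ1, JAZ2, JAZ3 and JAZ9) stood higher at an unadjusted p under 0.05, where 12.7% of all probe sets did, and 0 were called by limma after adjustment, where 0% were in either direction. The low CO2 values then lay wholly above the remaining ambient values for 5 of 7, the same 4 and JAZ5, against 23% of all probe sets. For JAZ5 the margin was narrow, with low CO2 replicate 1 at 4.36 and ambient replicate 3 at 4.33. The median difference became 0.64 beside -0.03 over all probe sets. Leaving out ambient replicate 2 or 3 instead, so that replicate 1 was 1 of 2 ambient arrays, gave medians of 0.05 and 0.08 and differences for JAZ1 of 0.58 and 0.46. Without low CO2 replicate 1, 0 of 7 were called, although that fit put 16.8% of all probe sets past the threshold as higher and 18.5% as lower. The largest differences in that fit were 1.05 (SE 0.67, limma adjusted p = 0.265) for JAZ1 and 1.02 (SE 0.52, limma adjusted p = 0.165) for JAZ9. With both arrays left out, a choice made after seeing the data, the low CO2 values lay wholly above the ambient ones for 5 of 7 and wholly below for 0, against 34.2% and 41.5% of all probe sets. In that fit limma called JAZ1, JAZ2, JAZ3 and JAZ9 higher with adjusted p of 3.35e-04, 0.00362, 0.0128 and 3.71e-04, where 20.7% of all probe sets were called higher and 22.3% lower. Array weights in limma, which count the less typical arrays for less, called JAZ1, JAZ2, JAZ3 and JAZ9 higher, beside 29.6% of all probe sets so called and 34.4% called lower, but this default estimate did not converge. Weights by the gene-by-gene method, a choice also made after seeing the data, called JAZ1, JAZ3 and JAZ9 higher (limma adjusted p = 0.0189, 0.0254 and 0.00719), beside 24.1% and 26.9%. The comparison without both arrays has 2 arrays in each group and leaves out the arrays that widen each group, so its p values too are likely too small.

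**Figure D3:**
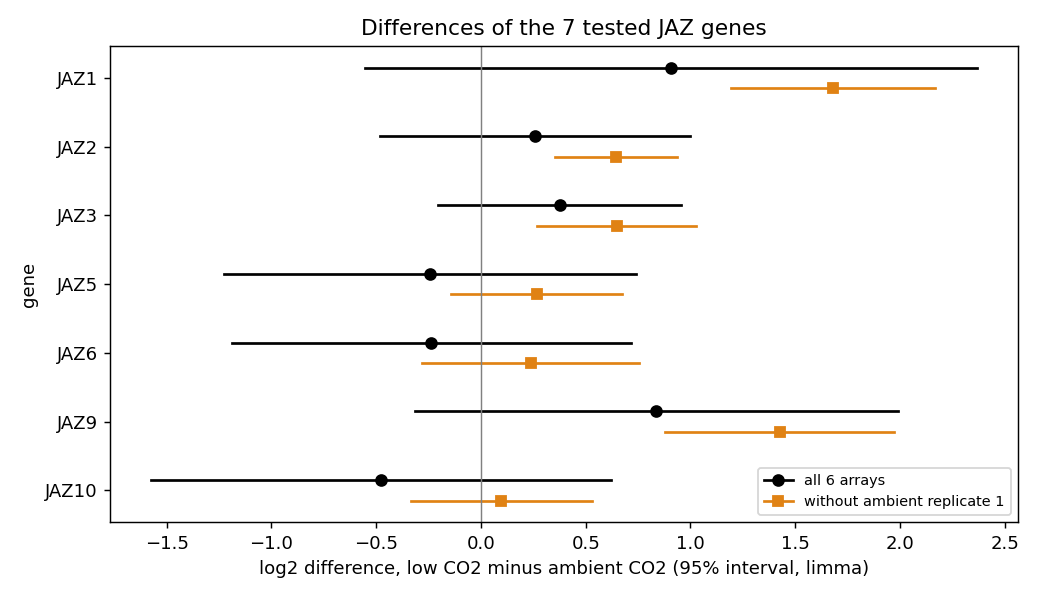
Log2 difference between low CO2 and ambient CO2 for the 7 tested JAZ genes with 95% intervals from limma, from all 6 arrays (black circles) and without ambient replicate 1 (orange squares). All black intervals include 0, and without that array the intervals of JAZ1, JAZ2, JAZ3 and JAZ9 lie above 0 while those of JAZ5, JAZ6 and JAZ10 include it.

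The tested JAZ genes varied together over the 6 arrays, with ambient replicate 1 as the shared high point. Over the 21 pairs of genes, Pearson's r ran from 0.46 for JAZ9 and JAZ10 to 0.97 for JAZ1 and JAZ9, with a median of 0.77. Without ambient replicate 1, over 5 arrays, the median was 0.73, and r ran from -0.15 for JAZ5 and JAZ10 to 0.99 for JAZ2 and JAZ9, which had 0.91 and 0.94 over the 6 arrays. JAZ10 then had r of -0.15 to 0.20 with JAZ1, JAZ2, JAZ3, JAZ5 and JAZ9, and 0.73 with JAZ6. For JAZ5 and JAZ6 r was 0.003, in place of 0.86 over the 6 arrays. On the 5 arrays without ambient replicate 1, JAZ5 and JAZ10 read below log2 5, near the log2 4 level set for testing. The points share the same RNA pools, and these values describe the arrays only. The probe sets outside the family most like the mean of the 7 centred JAZ profiles over the 6 arrays were MEB1 (r = 0.995), CPK23 (r = 0.987), AT4G00270 (r = 0.983), AT3G12940 (r = 0.982) and SMT3 (r = 0.974). CPK23, a calcium-dependent protein kinase gene, read 5.38, 3.87 and 4.08 on the ambient arrays and 4.70, 4.87 and 4.59 on the low CO2 arrays, so that the low CO2 values lay between ambient replicate 1 and the other ambient arrays, as for JAZ1. AT4G00270 and AT3G12940 spanned only 0.41 and 0.31 on the log2 scale. For single genes the closest profiles were SBI1 for JAZ1 (r = 0.991), AT3G12940 for JAZ2 (r = 0.997), TPS7 for JAZ3 (r = 0.995), RAP2.4 for JAZ5 (r = 0.994), AMSH1 for JAZ6 (r = 0.994), AT4G21870 for JAZ9 (r = 0.999) and ATPMEPCRB for JAZ10 (r = 0.996).

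The rest of the TIFY family, named for the TIFY motif through which JAZ proteins bind each other and NINJA, varied less over the arrays. JAZ11, PPD1 and AT3G22275 were not analysed here, and 6 others were tested. Limma called 0 of the 6 with all arrays, and without low CO2 replicate 1 it called JAZ12 higher, or 16.7%, beside 16.8% of all probe sets. JAZ12 read 9.85, 9.35 and 9.52 on the ambient arrays and 9.86, 10.26 and 10.19 on the low CO2 arrays. All its low CO2 values lay above the ambient ones, with low CO2 replicate 1 only just so. The log2 difference of JAZ12 was 0.53 (SE 0.17, limma adjusted p = 0.142), and 0.65 (limma adjusted p = 0.0197) without low CO2 replicate 1. ZIM, ZML1 and ZML2, which carry a GATA zinc finger, differed by 0.29, 0.21 and 0.12 and PPD2 and TIFY8 by 0.05 and 0.03, with limma adjusted p from 0.167 to 0.910. All low CO2 values of ZIM, ZML1 and ZML2 also lay above the ambient ones. With JAZ12 this held for 4 of the 6, against 14.6% of all probe sets. Ambient replicate 1 was the highest array for 1 of the 6, TIFY8, beside 14% of all probe sets tested. It exceeded the other ambient arrays by a median of -0.02.

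Of the tested enzymes of jasmonate synthesis, 8 of 12 had their highest value on ambient replicate 1, against 14% of all probe sets tested. Of 14 listed, 12 were tested and AOC1 and AOC2 were not analysed here. Limma called 0 with all arrays, and without low CO2 replicate 1 it called ACX1 higher and AOS lower, or 8.33% each, beside 16.8% and 18.5% of all probe sets. The median difference was -0.23 with all arrays and 0.02 without ambient replicate 1. The median excess of ambient replicate 1 over the other ambient arrays was 0.78. OPR3, the reductase that converts the precursor OPDA in peroxisomes, read 10.10, 8.31 and 8.60 on the ambient arrays and 8.58, 8.35 and 8.11 on the low CO2 arrays. Like JAZ10 it was high on ambient replicate 1 alone, and its difference was -0.65 (SE 0.45, limma adjusted p = 0.373). The chloroplast lipoxygenase gene LOX2 read 11.68, 10.04 and 10.53 in ambient CO2 and 10.88, 10.20 and 9.87 in low CO2 (difference -0.43, SE 0.45, limma adjusted p = 0.550). AOS, allene oxide synthase, differed by -0.61 (SE 0.31, limma adjusted p = 0.251), and by -0.88 (limma adjusted p = 0.0331) without low CO2 replicate 1. AOC4, an allene oxide cyclase, differed by -0.25 (SE 0.12, limma adjusted p = 0.240), with all 3 low CO2 values below the ambient ones. ACX1, an acyl-CoA oxidase of the beta-oxidation steps, went the other way, at 9.25, 8.88 and 8.87 in ambient CO2 and 9.27, 9.72 and 9.85 in low CO2. Its difference was 0.62 (SE 0.19, limma adjusted p = 0.136), and 0.79 (limma adjusted p = 0.00842) without low CO2 replicate 1. JAR1, which conjugates jasmonic acid to isoleucine, differed by 0.10 (SE 0.14, limma adjusted p = 0.668).

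**Figure D4:**
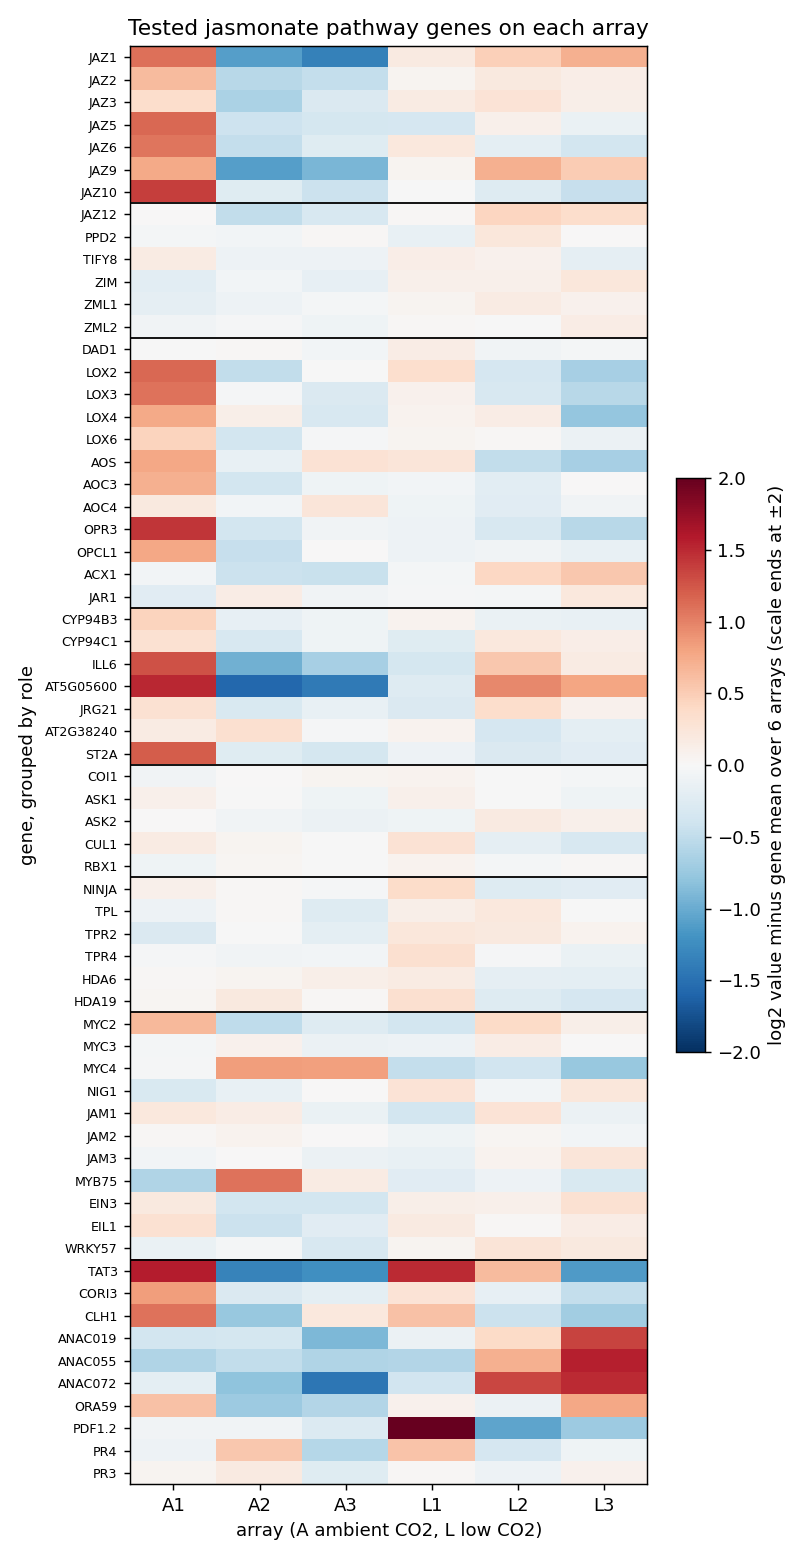
Log2 value minus the mean of the 6 arrays for each tested gene (rows, grouped by role and separated by black lines) on ambient CO2 arrays A1 to A3 and low CO2 arrays L1 to L3, with red above and blue below the mean and colours ending at 2 either way. Column A1 is red for all 7 JAZ genes and for LOX2, OPR3 and ST2A, and near white for COI1 and MYC3.

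Genes that turn the hormone over followed both patterns. Of 10 listed, 7 were tested and limma called 0, with all arrays or without low CO2 replicate 1. Of all probe sets, 0% were called with all arrays, and 16.8% higher and 18.5% lower in the second fit. Ambient replicate 1 was the highest array for 5 of the 7, against 14% of all probe sets tested. ILL6, an amidohydrolase that splits jasmonoyl-isoleucine, read 8.24, 6.01 and 6.30 on the ambient arrays and 6.62, 7.50 and 7.13 on the low CO2 arrays, which again lay between ambient replicate 1 and the others. ILL6 was named after its values were seen. The gene AT5G05600 had the same arrangement over a wider range, at 7.59, 4.52 and 4.67 in ambient CO2 and 5.83, 7.05 and 6.88 in low CO2. Its difference was 0.99 (SE 0.82, limma adjusted p = 0.459), and 1.99 (SE 0.38, limma adjusted p = 0.132) without ambient replicate 1. ST2A, a sulfotransferase of hydroxylated jasmonate, was high on ambient replicate 1 alone, at 6.41 against 4.84 to 5.08 on the other 5 arrays. AT2G38240 and CYP94B3, a hydroxylase of the hormone, differed by -0.31 (SE 0.15) and -0.14 (SE 0.18), with limma adjusted p of 0.241 and 0.656.

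Receptor complex genes differed by -0.14 to 0.12 and corepressor genes by -0.18 to 0.32. COI1, the F-box subunit that binds JAZ proteins, read between 7.67 and 7.81 on all 6 arrays and differed by 0.01 (SE 0.10, 95% interval -0.23 to 0.25, limma adjusted p = 0.961). Its ligase partners ASK2, CUL1 and RBX1 differed by 0.12, -0.14 and 0.04. Limma called 0 of the 5 receptor complex genes, with all arrays or without low CO2 replicate 1. Of all probe sets, 0% were called with all arrays, and 16.8% higher and 18.5% lower in the second fit. Ambient replicate 1 was the highest array for 0 of the 5, beside 14% of all probe sets. NINJA differed by -0.08 (SE 0.18, limma adjusted p = 0.807) and TPL by 0.22 (SE 0.12, limma adjusted p = 0.296). TPR2, another TOPLESS family gene, differed by 0.32 (SE 0.12, 95% interval 0.03 to 0.61, limma adjusted p = 0.165), with all low CO2 values above the ambient ones. The histone deacetylase genes HDA6 and HDA19 differed by -0.13 and -0.18, and limma called HDA19 lower without low CO2 replicate 1 (-0.38, limma adjusted p = 0.0364). That was the only call among the 6 corepressor genes tested, in either fit. It makes 16.7% called lower, beside 18.5% of all probe sets in the same fit. NINJA read 8.32 to 8.95 over the 6 arrays and HDA19 8.27 to 8.93, both highest on low CO2 replicate 1.

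Among the transcription factors that JAZ proteins bind, MYC4 differed most. MYC4, which acts with MYC2 and MYC3 in leaf defence, read 7.50, 8.37 and 8.35 on the ambient arrays and 7.06, 7.15 and 6.77 on the low CO2 arrays. All low CO2 values lay below the ambient ones, and ambient replicate 1 was the lowest of its group, the reverse of its place for the JAZ genes. MYC4 averaged 6.99 ± 0.20 (SD, n = 3) at low CO2 against 8.07 ± 0.50, a log2 difference of -1.08 (SE 0.25, limma adjusted p = 0.118), or 2.12-fold. It was -1.37 (SE 0.16, limma adjusted p = 0.101) without ambient replicate 1 and -1.11 (limma adjusted p = 0.0213) without low CO2 replicate 1. MYC2 read 7.71, 6.56 and 6.82 in ambient CO2 and 6.71, 7.45 and 7.18 in low CO2, with overlapping groups and a difference of 0.08 (SE 0.33, limma adjusted p = 0.892). MYC3 differed by 0.04 (SE 0.12, limma adjusted p = 0.835). Of 17 listed, 11 were tested. Limma called 0 with all arrays, and without low CO2 replicate 1 it called WRKY57 higher (0.39, limma adjusted p = 0.0488) and MYC4 lower. These are 9.09% each, beside 16.8% of all probe sets called higher and 18.5% lower in that fit. WRKY57 differed by 0.33 with all arrays, the ethylene regulator EIN3 by 0.35 and NIG1 by 0.29, with limma adjusted p of 0.166, 0.251 and 0.231.

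Of the response genes tested, 8 had a positive and 2 a negative difference, with a median of 0.38. Limma called 0 of the 10 tested with all arrays, and without low CO2 replicate 1 it called 3 higher and 1 lower, or 30% and 10%, beside 16.8% and 18.5% of all probe sets. VSP1 and VSP2, the classic leaf markers of MYC activity, were not analysed here. The NAC factor genes ANAC019, ANAC055 and ANAC072, which are induced by abscisic acid and drought as well as by jasmonate, were the 3. ANAC072 read 7.62, 7.02 and 6.37 on the ambient arrays and 7.44, 9.17 and 9.32 on the low CO2 arrays. Low CO2 replicate 1 fell within the ambient range, below ambient replicate 1, and the other low CO2 values lay above it. ANAC072 differed by 1.64 (SE 0.54, limma adjusted p = 0.142), and by 2.24 (limma adjusted p = 0.00353) without low CO2 replicate 1. ANAC019 differed by 1.08 and ANAC055 by 1.13 with all arrays, and by 1.41 and 1.70 without that array (limma adjusted p = 0.0125 and 0.00291). The defensin gene PDF1.2, a marker of the branch shared with ethylene, was the 1 called lower in that fit. It read 7.59 on low CO2 replicate 1, 4.36 and 4.69 on the other low CO2 arrays and 5.14 to 5.35 in ambient CO2. Its difference was therefore 0.27 (SE 0.79, limma adjusted p = 0.849) with all arrays and -0.75 (limma adjusted p = 0.00813) without low CO2 replicate 1. ORA59, an activator of PDF1.2, differed by 0.49 (SE 0.39, limma adjusted p = 0.436), and by 0.58 without low CO2 replicate 1. TAT3, CORI3 and CLH1 were named after their values were seen and were the 3 response genes highest on ambient replicate 1. They make 30% of the 10 tested, beside 14% of all probe sets tested. TAT3, a tyrosine aminotransferase induced by jasmonate, read 7.77, 4.86 and 4.97 in ambient CO2 and 7.69, 6.84 and 5.07 in low CO2. CORI3 and CLH1, which have the 2 negative differences, differed by -0.24 (SE 0.34, limma adjusted p = 0.671) and -0.36 (SE 0.51, limma adjusted p = 0.675).

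Over the 57 tested entries of these lists outside JAZ1 to JAZ10, limma called 0 with all arrays and 6 higher and 4 lower without low CO2 replicate 1, or 10.5% and 7.02%, beside 16.8% and 18.5% of all probe sets. Ambient replicate 1 was the highest of the 6 arrays for 19 of the 57, or 33.3%, beside 14% of all probe sets tested. Among the marker lists, only that of guard cells had its highest mean on ambient replicate 1, and its genes were mixed. The median excess of that array over the other ambient arrays was 0.01 for the 3 mesophyll markers tested, -0.03 for 6 vascular markers, -0.10 for 4 epidermal and trichome markers, -0.01 for 4 root markers and 0.17 for 6 guard cell markers. Ambient replicate 1 was the highest of the 6 arrays for 2 of 3, 0 of 6, 0 of 4, 1 of 4 and 3 of 6 of them, in the same order. The share over all probe sets tested was 14%. The 2 mesophyll markers, RCA and LHCB3, had excesses of only 0.03 and 0.01. The 3 guard cell genes, named after their values were seen, were FAMA, KAT1 and GORK. The excess was 0.95 for KAT1, a potassium channel gene, 0.41 for SLAC1, 0.19 for GORK and 0.16 for FAMA. It was -0.10 for MYB60 and -0.02 for OST1. The mean level of the guard cell list was 5.81 to 6.00 over the low CO2 arrays and 6.05 to 6.34 over the ambient arrays, highest on ambient replicate 1, and its part in the JAZ values was not tested. The mean over 7 root markers on the array was 4.10 to 4.13 in low CO2 and 4.16 to 4.21 in ambient CO2. PLT1, PLT2 and IRT1 lay below log2 4 on every array. The 4 tested root markers were not silent, at 5.49 to 5.68 for SHR and 4.00 to 4.77 for EXPA7. COBL9 read 3.91 to 4.45 and RSL4 4.24 to 4.50.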

How the data were processed

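The authors deposited log2 expression values of 21430 probe sets for 6 Affymetrix arrays, and the submitters' processing notes name GCRMA without a version. Per the labels' protocols, 5 µg total RNA was turned into biotinylated cRNA. No source states the base, and the range of the values (2.62 to 14.20) is that of log2. Genome build and probe grouping are not given in these sources, so no coordinates are printed. There were 221 probe sets with values identical to those of another, among them 0 of the listed genes. RefSeq's gene table for TAIR10.1 held all 125 list entries, and 8 of them carry the table's name.

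A probe set was tested if at least 3 arrays gave it log2 4 or more (16210 kept, 5220 set aside). The groups were contrasted by lmFit and eBayes of limma 3.58.1 (R 4.3.3), without covariates, 2-sided, with Benjamini-Hochberg adjustment over every probe set tested and a threshold of 0.05. Permuting 3 against 3 arrays exactly cannot go below p = 0.1 and was not done. The fit was run on simulated data with independent noise for each probe set and no array that stood apart. That run checks the code and does not bear on the calls here. The members and lists were chosen with earlier results of these data known, and no list was tested as a set. Named were JAZ1 to JAZ10, the other TIFY genes, fixed pathway genes (COI1, NINJA, TPL, MYC2, MYC3, MYC4, LOX2, AOS, OPR3, JAR1, VSP1, VSP2, PDF1.2), the 4 smallest p in each list, the 5 profiles closest to the JAZ mean and the closest to each member. Alternatives were a filter at log2 5 or none, trended robust eBayes, quantile or median scaling, the replicate block, array weights, Holm adjustment and omission of each array. Plots used matplotlib 3.10.9 and Python 3.11.15.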

Additional observations from a re-analysis of the deposited data

How the results depend on the processing

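Calls among JAZ genes depended on which arrays counted. With all 6 arrays at equal weight, 0 were called with no filter, a floor of log2 5 (where JAZ5 and JAZ10 were not tested), trended robust eBayes, quantile normalization, median centring, Holm adjustment and the replicate block. Leaving out each array in turn also gave 0. The omissions gave 0 to 10 of 57 pathway genes called, 0 to 2722 probe sets higher and 0 to 3001 lower. Each was highest without low CO2 replicate 1, at 10.5% of pathway genes higher and 7.02% lower, beside 16.8% and 18.5% of all probe sets. They also gave 0 to 5 JAZ genes whose low CO2 values all lay higher. The 5 came without ambient replicate 1, where 23% of all probe sets did so, and JAZ5 was among them only narrowly. That omission raises each JAZ difference by construction. Without ambient replicate 1 the log2 difference turned positive for JAZ5 (0.27), JAZ6 (0.24) and JAZ10 (0.10), while over the 6 omissions it ran from -0.51 to 0.27 for JAZ5, -0.53 to 0.24 for JAZ6 and -0.81 to 0.10 for JAZ10. The differences of JAZ1, JAZ2, JAZ3 and JAZ9 stayed positive under all alternatives run, from 0.46 to 1.82 for JAZ1 and 0.05 to 0.68 for JAZ2.

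Omitting both replicates numbered 1 gave 4 JAZ genes called, 5 whose low CO2 values all lay higher (as did 34.2% of all probe sets), 18 pathway genes, and 3354 probe sets higher and 3616 lower, with JAZ5 at 0.37 and JAZ6 at 0.073. Array weights gave 4 JAZ genes, 29 pathway genes, and 4798 and 5573 probe sets, with JAZ5 at 0.28. That estimate did not converge and gave low CO2 replicate 2 a weight of 40.4 against 0.12 for replicate 1. Gene-by-gene weights (4.17 and 0.18 for the same arrays) gave 3 JAZ genes, 20 pathway genes, and 3899 and 4353 probe sets, with JAZ5 at 0.22.

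The labels do not say that the replicate numbers pair the arrays. Same-numbered arrays' deviations from their group means correlated at -0.19, 0.02 and -0.20, and those of differently numbered arrays at -0.35 to 0.30. With 3 arrays per group these values cannot decide whether the arrays were paired. With the replicate block 0 JAZ genes were called, and JAZ1 differed by 0.91 (limma adjusted p = 0.416). The SE with the block was 0.25 for JAZ6 and 0.32 for JAZ10, in place of 0.40 and 0.46. For JAZ1 and JAZ9 it was 0.62 and 0.53, in place of 0.61 and 0.49. JAZ4, JAZ7 and JAZ8 gave signals too weak to compare.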
